A study of Drosophila melanogaster with 2 samples.

Results

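The genes described here are the 88 nuclear protein-coding genes of Drosophila melanogaster whose symbol begins with ND-, Sdh, UQCR-, COX or ATPsyn, out of 13968 nuclear protein-coding genes in the Ensembl annotation. The prefixes stand for the 5 complexes of oxidative phosphorylation, and the members were chosen by symbol alone. By prefix, 40 genes belonged to complex I, 8 to complex II, 9 to complex III, 16 to complex IV and 15 to complex V, the ATP synthase. The set was not uniform: 63 members are named as subunits, 24 carry the symbol of a subunit followed by L (with or without a number) and are called L paralogues here, and Sdhaf3 is an assembly factor. Subunits with other names, such as blw and Cyt-c1, fell outside the symbol rule and are given at the end.

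Complexes I to IV pass electrons from NADH and succinate to oxygen in the inner mitochondrial membrane. Complexes I, III and IV pump protons as they do so, and the ATP synthase uses the resulting gradient to make ATP. Most subunits are encoded in the nucleus and imported, while a small core is encoded in mitochondrial DNA, so both genomes have to supply parts in proportion. In flies, many subunit genes have a duplicate with expression largely limited to the testis.

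Occupancy of Ash1, a histone methyltransferase of the trithorax group that counteracts Polycomb repression, was mapped by chromatin immunoprecipitation and sequencing (ChIP-seq) in whole embryos. All samples came from 1 group: mixed-sex embryos aged 0 to 24 h of a transgenic line with GFP fused to the C terminus of Ash1, with chromatin sonicated to 200 to 800 bp. The 2 biological replicates are numbered 2 and 4, and both were called against the same control alignment. The labels describe them in one place as input controls, but the antibody, assay and peak lists are those of Ash1 ChIP, and they were read as such. Whether the tagged gene was an extra copy or replaced the endogenous one is not given in the sources used here, and an untagged line was not analysed. Whole embryos mix many cell types and 24 h of development, so fewer cells with the protein at a site and less of it per cell cannot be told apart.

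The authors' lists hold 30000 candidate regions each, peaks and background together, from replicate 2, from replicate 4 and from both pooled. A region's signal is the peak caller's own value, on a scale the sources used here do not state, and it served only to rank regions within a list, with rank 1 the strongest. The authors' irreproducible discovery rate (IDR) list holds 1567 regions, called peaks here, which were the 1567 strongest pooled candidates. The weakest peak had a signal of 92.527 and the strongest candidate left out 92.519, so the line between bound and unbound genes is a cut through a continuous series. A gene had a candidate when a region's summit lay within 500 bp of one of its transcription start sites (TSSs), and it was called bound when such a region was a peak. For each replicate alone, its own 1567 strongest candidates took the place of the peaks. The lists hold no read counts, so depth is unknown, and there is no second condition, so no p-value is given.

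Sequences are shown for 3 of the bound members, and for 4 unbound members whose candidate holds one of the promoter words searched for. They were read from the RefSeq copy of the dm6 assembly, run 5′ to 3′ on the strand of the gene, and avoid annotated untranslated regions. The first 3 hold none of the words in capitals. ND-ASHI, chrX:6679278-6679477, minus strand, with the summit at base 100. ATPsynC, chr3R:31219631-31219784, minus strand, just upstream of the outermost TSS, since the summit itself lies in the 5′ untranslated region. COX5B, chr2L:6557503-6557702, plus strand, with the summit at base 28. In the other 4 the capitals mark a match to a searched word. COX6B, chrX:19744336-19744430, minus strand, holds GAGAG, the core of GAGA factor sites, as its complement CTCTC. ND-42, chr3R:22027481-22027680, plus strand, holds the word TTATATAA of the nuclear respiratory gene (NRG) element. SdhD, chr3R:23760601-23760736, minus strand, holds the DNA replication-related element (DRE) core ATCGAT. ND-B17, chr2L:15751079-15751278, minus strand, holds the Motif 1 core GGTCACAC.
ND-ASHI: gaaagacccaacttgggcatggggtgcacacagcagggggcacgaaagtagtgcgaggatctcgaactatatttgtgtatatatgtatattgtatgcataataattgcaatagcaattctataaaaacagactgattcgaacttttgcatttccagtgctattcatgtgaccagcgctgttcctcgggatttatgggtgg
ATPsynC: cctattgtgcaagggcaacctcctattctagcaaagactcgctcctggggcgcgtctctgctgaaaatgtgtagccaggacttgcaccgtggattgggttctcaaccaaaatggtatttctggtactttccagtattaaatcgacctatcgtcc
COX5B: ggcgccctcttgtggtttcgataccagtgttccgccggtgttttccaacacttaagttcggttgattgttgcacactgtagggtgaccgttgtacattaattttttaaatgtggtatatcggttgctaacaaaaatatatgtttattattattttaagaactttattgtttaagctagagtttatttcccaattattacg
COX6B: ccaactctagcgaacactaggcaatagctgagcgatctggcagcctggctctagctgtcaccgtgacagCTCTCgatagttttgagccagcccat
ND-42: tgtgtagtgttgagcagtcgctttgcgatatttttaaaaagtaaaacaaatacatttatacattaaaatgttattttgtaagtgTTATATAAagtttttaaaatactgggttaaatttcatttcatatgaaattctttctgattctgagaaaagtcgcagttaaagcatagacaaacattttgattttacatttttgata
SdhD: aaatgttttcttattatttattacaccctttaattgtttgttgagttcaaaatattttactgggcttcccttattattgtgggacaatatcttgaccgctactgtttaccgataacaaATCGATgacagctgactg
ND-B17: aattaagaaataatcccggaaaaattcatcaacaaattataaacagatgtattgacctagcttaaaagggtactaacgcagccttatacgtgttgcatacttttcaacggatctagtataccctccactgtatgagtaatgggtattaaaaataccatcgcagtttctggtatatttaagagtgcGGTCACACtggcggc

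Of the 88 genes, 39 (44.3%) had a pooled candidate at a TSS, against 44.9% of all nuclear protein-coding genes. Ash1-GFP peaks were found at 5 of these 39: ND-ASHI, ATPsynC, COX5B, COX7C and ND-MWFE. That was 12.8% (exact Clopper-Pearson 95% interval 4.30 to 27.4), and the share over all coding genes with a candidate was 16.7%, which lies within the interval. The intervals treat genes as independent draws, which they are not, and cover counting error only. A difference between the oxidative phosphorylation genes and coding genes at large was not detectable with these counts.

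The strength of the candidates was spread over the whole list. The median rank of the members' strongest candidate was 5373, against 7316 over all coding genes with one. This order turned in each replicate alone, where the members' medians were 8655 against 7417 in replicate 2 and 8067 against 7741.5 in replicate 4. These medians cover the 45 members with a candidate in each replicate. For genes with a candidate in both replicates, the medians were 7559 against 5225 in replicate 2 and 5161.5 against 5363 in replicate 4. Ranks 1568 to 3000, directly below the peaks, held 7 members (17.9%), against 11.2% of coding genes, and ranks 3001 to 6000 held 8 (20.5% against 16.9%). Ranks 6001 to 15000 held 9 (23.1% against 29.3%), and the weakest candidates, from rank 15001, held 10 (25.6% against 26.0%). The last member inside the IDR list was ND-MWFE, at rank 1077 with a signal of 108, and the first outside it was ND-B22, at rank 1635 with 91.12.

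**Figure D1:**
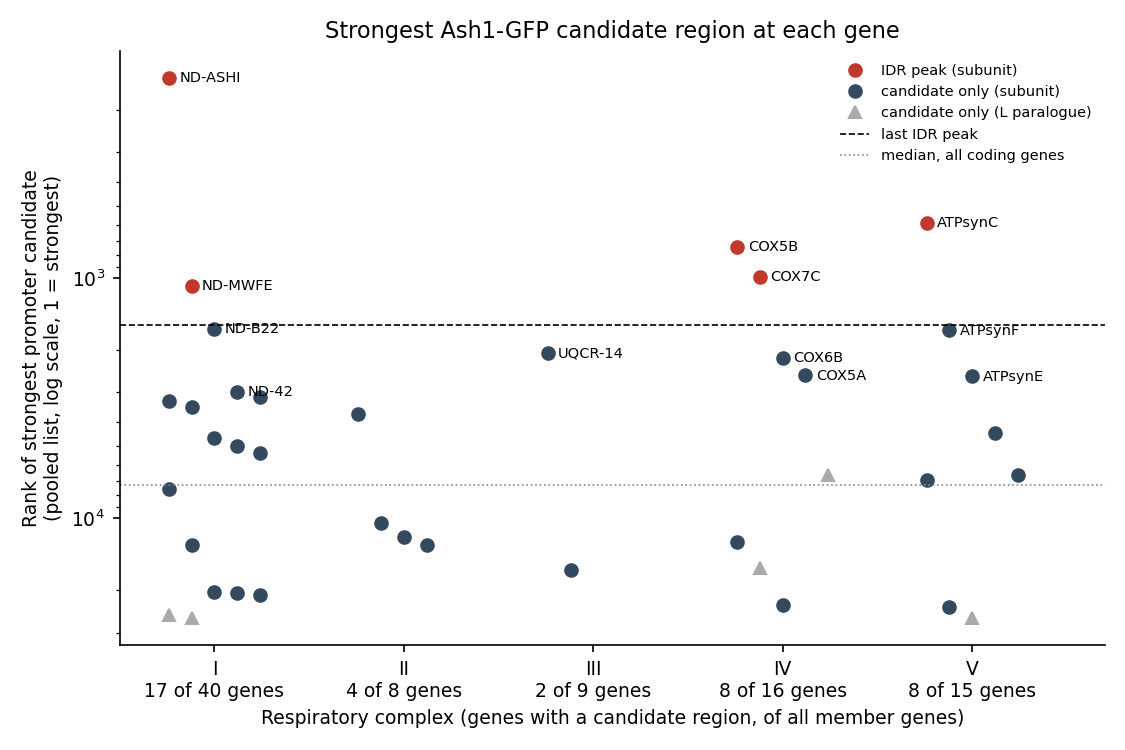
Rank of the strongest pooled candidate at each of the 39 members that had one, by respiratory complex, on a log axis with the strongest at the top. Circles are subunits and triangles L paralogues, red marks the 5 bound genes, the dashed line is the last IDR peak and the dotted line the median over all coding genes (7316). The bound genes lie in complexes I, IV and V, and 4 of the 5 triangles lie at the weak end.

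The peaks of the bound members are described in order of complex. ND-ASHI (FBgn0029888), an accessory membrane-arm subunit of complex I and the counterpart of mammalian NDUFB8, had the strongest region of all members. Its peak, chrX:6679303-6679455, ranked 147 in the pooled list with a signal of 224.4, and it ranked 127 in replicate 2 and 266 in replicate 4. The summit lay 260 bp upstream of the outermost of its 3 annotated TSSs, and 1118 and 1217 bp from the others. It was equally near, at 262 bp, to a TSS of Fum1, which encodes fumarase of the citric acid cycle and is transcribed in the opposite direction. The peak lies between both start sites, in an annotated intron of Fum1, and assigns the same region to a respiratory chain gene and to a citric acid cycle gene.

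ND-MWFE (FBgn0085468), counterpart of NDUFA1 and a small membrane subunit of complex I, had a peak at chr2R:13158377-13158712. It ranked 1077 in the pooled list, 2038 in replicate 2 and 1162 in replicate 4, and so was among the strongest of replicate 4 only. The summit was 121 bp upstream of the gene's TSS and 100 bp from a TSS of TppII, the gene of tripeptidyl peptidase II, which was the nearer one.

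In complex IV, cytochrome c oxidase, both bound genes encode small nuclear subunits that surround the catalytic core. The COX5B (FBgn0031830) peak, chr2L:6557362-6557697, ranked 741 with a signal of 125.3, and replicate 4 placed it at rank 420. Replicate 2 had no candidate within 100 bp of that summit, and its strongest candidate at the COX5B TSS, at another summit, ranked 2769. The pooled summit was 270 bp upstream of COX5B but only 28 bp from the TSS of IFT52, an intraflagellar transport gene read in the other direction.

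The COX7C (FBgn0040773) peak, chr2R:10048491-10048826, followed the same pattern. It ranked 988 in the pooled list with a signal of 111.8 and 434 in replicate 4, while replicate 2 had no candidate within 100 bp of the summit and its best candidate at a COX7C TSS ranked 3703. The summit lay 306 bp downstream of the first of 2 TSSs, within an intron, 822 bp from the other, and 40 bp from a TSS of oys, a lysophospholipid acyltransferase gene. At both complex IV genes a neighbour was nearer to the summit than the member was, and the peak was strong in 1 replicate only.

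ATPsynC (FBgn0039830) encodes the c subunit, which forms the rotating proton-carrying ring of the ATP synthase. Its peak, chr3R:31219366-31219701, ranked 589 with a signal of 136.9, and it ranked 773 in replicate 2 and 925 in replicate 4. The summit was 25 bp downstream of 1 TSS, 96 bp from the outermost and 483 bp from the third, in the 5′ untranslated region. The microRNA gene mir-4949 starts 162 bp away, but no other coding gene has a TSS within 500 bp. Among the bound members, ATPsynC alone had a peak that could be assigned to no other coding gene and that was among the strongest of both replicates.

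Seen together, 4 of the 5 peaks lay within 500 bp of a TSS of another coding gene, against 43.9% of all 1044 bound coding genes. The member was the nearest coding gene at 2 of the 5, ND-ASHI and ATPsynC, against 77.3% of bound coding genes. The summit was over 250 bp from the member's TSS at 3 of the 5, against 18.0%. Across all 39 members with a candidate, 22 candidates (56.4%, against 38.8% of coding genes) had another coding TSS within 500 bp. The member was nearest at 26 (66.7% against 80.4%). This was not particular to the members. Another coding TSS was in reach at 81% of mitochondrial ribosomal, 66.7% of proteasome and 41% of cytoplasmic ribosomal protein genes with a candidate. In the same order, the gene itself was nearest at 47.6%, 66.7% and 93.6%. Summits lay a median of 79 bp from the TSS, against 106 bp, and 13 summits (33.3% against 30.3%) lay within 50 bp. Over the 39 genes there were 51 distinct candidates, and none was shared by more than 1 member.

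**Figure D2:**
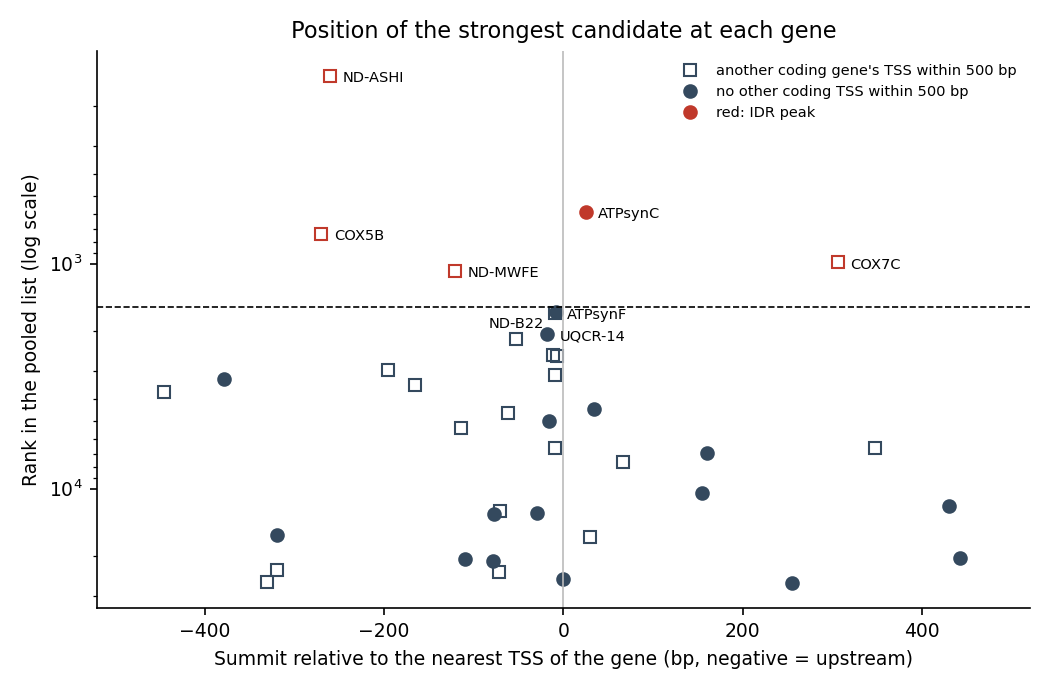
Position of the strongest pooled candidate's summit relative to the nearest TSS of the member (bp, negative upstream) against its rank on a log axis, for 39 genes. Open squares have another coding gene's TSS within 500 bp, filled circles have none, and red marks the 5 bound genes. ATPsynC is the only red circle and lies 25 bp from its TSS, while ND-ASHI, COX5B and COX7C lie 260, 270 and 306 bp away.

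The unbound members nearest to the IDR list follow, again by complex. In complex I these were ND-B22, an accessory subunit related to NDUFB9, and ND-42, the counterpart of NDUFA10. The ND-B22 summit was 8 bp upstream of its TSS with no other coding TSS in reach, and it ranked 883 in replicate 4 but 10085 in replicate 2. ND-42 had rank 2983, with 2372 in replicate 2 and 7356 in replicate 4, and its summit was 196 bp from its own TSS and 33 bp from that of Cchl, the cytochrome c heme lyase gene. The order of the replicates was therefore opposite at these genes.

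Complex II, succinate dehydrogenase, is the enzyme that the respiratory chain shares with the citric acid cycle, and all 4 of its subunit genes had a pooled candidate. None was bound. SdhC, a membrane anchor subunit, stood highest at rank 3704 (2246 in replicate 4), but that summit was 446 bp from the SdhC TSS and 48 bp from that of Tctp. Replicate 2 had no candidate within 100 bp of the summit. Its strongest candidate at SdhC, at rank 9204, was another region with the summit 9 bp from the SdhC TSS. SdhB, the iron-sulphur subunit, was at rank 10494, SdhA, the catalytic flavoprotein, at 11931, and SdhD, the other anchor, at 12890. The 3 L paralogues and Sdhaf3 had no pooled candidate, and Sdhaf3 was near the end of both replicate lists, at 29215 and 26779.

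Complex III, the cytochrome bc1 complex, had the fewest pooled candidates, at 2 of 9 genes. In each replicate alone it had 4 of 9 (44.4%), against 45.5% of coding genes in replicate 2 and 44% in replicate 4. UQCR-14, the counterpart of UQCRB, was at rank 2057 with the summit 18 bp upstream of its TSS, and it ranked 5924 in replicate 2 and 1153 in replicate 4. UQCR-Q was at rank 16384. The genes of the large core proteins, UQCR-C1 and UQCR-C2, had a candidate in 1 replicate each, at rank 13790 in replicate 4 and 28114 in replicate 2, and none in the pooled list.

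Below the bound genes of complex IV stood COX6B at rank 2163 and COX5A at rank 2547. COX6B ranked 870 in replicate 4 and 7975 in replicate 2, at a summit 53 bp from its TSS and 43 bp from the shared start of Rpp20 and CG33932. COX5A ranked 1259 in replicate 4 and 7920 in replicate 2, with the summit 12 bp upstream of its TSS. COX8 had no pooled or replicate 2 candidate, although it ranked 1703 in replicate 4. COX4, which encodes a large nuclear subunit of the enzyme, had no candidate in any list.

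In the ATP synthase, ATPsynF and ATPsynE encode small subunits of the membrane sector. ATPsynF, at rank 1656 with a signal of 90.5, missed the IDR list narrowly and was the 1 member that ranked among the strongest of replicate 2 only (1247, against 3072 in replicate 4). ATPsynE, at rank 2571, was again higher in replicate 4 (1510) than in replicate 2 (7731), and its summit lay 7 bp upstream of its TSS. ATPsynO, the stalk subunit known as OSCP, followed at rank 4439. By contrast, ATPsynbeta, the catalytic subunit, and ATPsyngamma, the central shaft, had a candidate only in replicate 2, at ranks 27230 and 21501, and ATPsyndelta had none.

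By complex, 2 of 17 genes with a candidate were bound in complex I (11.8%, exact interval 1.46 to 36.4), 0 of 4 in complex II (upper bound 60.2), 0 of 2 in complex III (upper bound 84.2), 2 of 8 in complex IV (25.0%, 3.19 to 65.1) and 1 of 8 in complex V (12.5%, 0.316 to 52.7). These intervals overlap throughout and each holds the 16.7% of all coding genes, so no order of the complexes was detectable. Median ranks were 4990, 11212, 9220.5, 4580.5 and 5533 for complexes I to V, against 7316 over all coding genes with a candidate. Pooled candidates were found at 42.5% of complex I, 50% of complex II, 22.2% of complex III, 50% of complex IV and 53.3% of complex V genes. The share over all coding genes was 44.9%. The complex III share is 2 of 9 genes, and no intervals were computed for these shares or medians. By arm, the bound members were 1 of 7 on 2L, 2 of 7 on 2R, 0 of 6 on 3L, 1 of 11 on 3R and 1 of 8 on X, and the 2 members on chromosome 4 had no pooled candidate. The exact interval of each of these 5 shares also holds 16.7%.

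Candidates were counted separately at subunit genes and L paralogues. Of the 63 subunit genes, 34 (54.0%) had a pooled candidate and 5 of those were bound (14.7%, exact interval 4.95 to 31.1), with a median rank of 4535.5. Of the 24 L paralogues, 5 (20.8%) had one and none was bound (upper bound 52.2%), with a median rank of 25257. Over all coding genes, 44.9% had a candidate, 16.7% of those were bound and the median rank was 7316. The intervals of both bound shares hold 16.7%, so a difference in binding between subunit genes and L paralogues was not detectable. The 5 were COX7AL2 (rank 6614), COX7CL (16095), ND-B14.5AL (25257), ATPsynepsilonL (25972) and ND-51L1 (26131). The COX7AL2 summit lay 347 bp downstream of 1 of its 3 annotated TSSs and nearer to the start of CG10874, and that of ATPsynepsilonL nearer to gammaSnap2. In the replicates alone, 4 L paralogues had a candidate in replicate 2 and 7 in replicate 4, and none was among the strongest. The lists do not tell whether these genes were transcribed in the embryos.

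Altogether 29 members had no candidate in any of the 3 lists, of which 15 were subunits and 14 L paralogues. The subunits included ND-23 and ND-49 of the complex I core, ND-ACP, the acyl carrier protein, UQCR-11 and UQCR-6.4 of complex III, COX4, ATPsynG and ATPsyndelta. Another 30 members had a candidate in all 3 lists. The shares of all coding genes with a candidate in none or in all of the lists were not computed. List by list, candidates were found at 44.3%, 51.1% and 51.1% of members (pooled, replicate 2, replicate 4), against 44.9%, 45.5% and 44% of coding genes. None of the 83 unbound members had a peak within 1000 bp of a TSS, and 11 had one within 5000 bp. Their median distance to the nearest peak was 32505 bp. The same values over unbound coding genes were not computed, so whether peaks were sparser around the members cannot be read from them. Few coding genes were added at this range: of 13968, 1044 were bound in the main assignment and 1251 with a distance of 1000 bp. No candidate lay on the mitochondrial genome, so the mitochondrially encoded subunits could not be compared.

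The replicates ranked the members differently, and they also differed over coding genes at large. In replicate 2 alone, 3 of 45 members with a candidate were among the strongest (6.67%, exact interval 1.40 to 18.3), against 15.9% of coding genes. In replicate 4 alone it was 10 of 45 (22.2%, 11.2 to 37.1), against 16.5%. Both background shares lie within the members' intervals. ND-ASHI and ATPsynC were the members strong in both replicates.

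Strong in replicate 4 only were 8 members, COX5B, COX7C, ND-MWFE, ND-B22, UQCR-14, COX6B, COX5A and ATPsynE, and in replicate 2 only ATPsynF. Of the 10 members strong in replicate 4, 2 (20.0%) were so in replicate 2, against 56.7% over all coding genes. Of the 3 strong in replicate 2, 2 (66.7%) were so in replicate 4, against 57.1%. The members' shares rest on few genes. In all, 32 members had a candidate in both replicates, and 18 of them (56.2%, against 49.4% of coding genes) had the better rank in replicate 4. Across these genes Spearman's rho of the ranks was 0.54, against 0.60 over 4693 coding genes; genes are not independent replicates, and both lists share the control. The complex IV genes showed the widest gap, with 4 of 9 strong in replicate 4 and 0 of 7 in replicate 2, and median ranks of 1703 and 7920. With 1 library on each side, a difference between replicates has no replicate check.

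**Figure D3:**
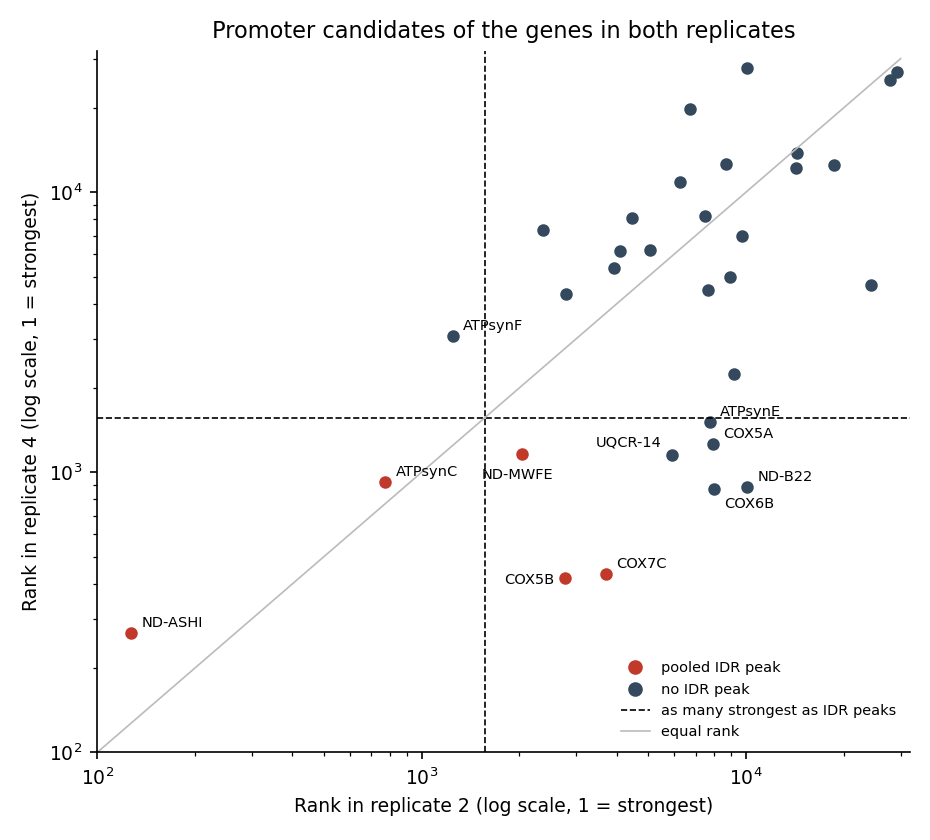
Rank of the strongest candidate at each of the 32 members with a candidate in both replicates, replicate 2 against replicate 4, on log axes. Dashed lines mark rank 1567 in each, the grey line equal rank, and red the 5 genes with a pooled IDR peak. ND-ASHI and ATPsynC lie inside both lines, 8 members lie inside the replicate 4 line only, and ATPsynF inside the replicate 2 line only.

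Other housekeeping classes were set beside the members by count. Cytoplasmic ribosomal protein genes had a candidate at 78 of 92 genes and were bound at 57 (73.1%, exact interval 61.8 to 82.5), an interval that does not overlap that of the oxidative phosphorylation genes. Mitochondrial ribosomal protein genes had 9 of 42 bound (21.4%, 10.3 to 36.8) and proteasome subunit genes 0 of 21 (upper bound 16.1%), and both intervals overlap that of the members. In the replicates alone the ribosomal share was 57.0% and 76.3%, for replicates 2 and 4, the mitochondrial ribosomal share 15.2% and 14.6%, and the proteasome share 0 in both.

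**Figure D4:**
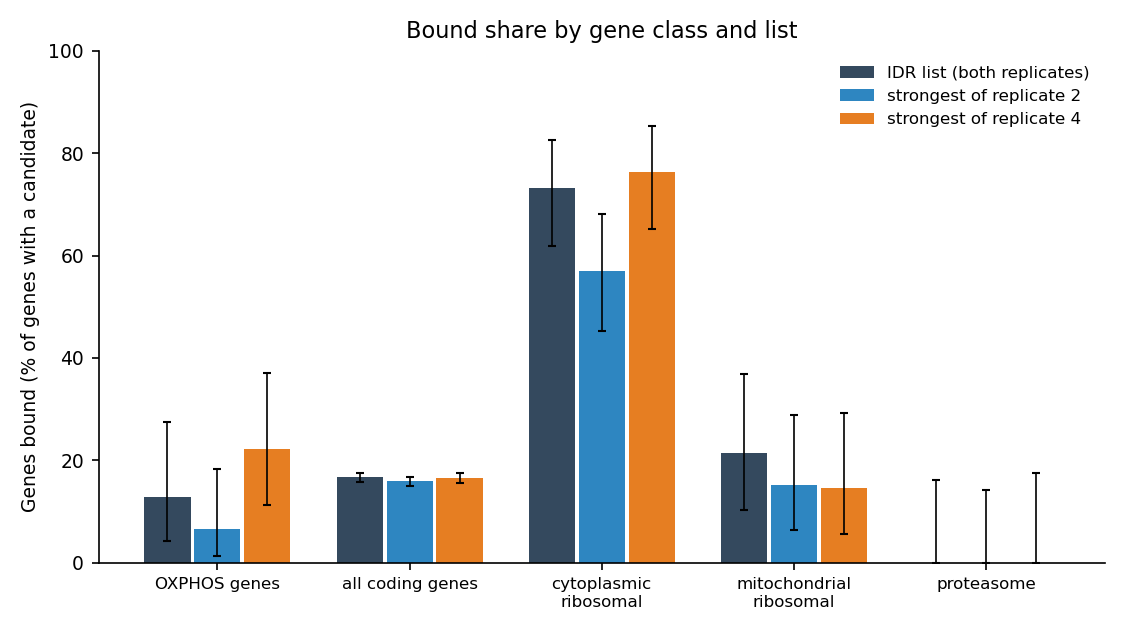
Share of genes with a candidate that were bound, for 5 gene classes, in the IDR list and among the 1567 strongest regions of each replicate alone; bars start at 0 and error bars are exact Clopper-Pearson 95% intervals. The members' bars, 12.8%, 6.67% and 22.2%, lie around those of all coding genes, 16.7%, 15.9% and 16.5%, and far below the cytoplasmic ribosomal bars.

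Genes of the same pathway outside the symbol rule were counted in the same way. Over all coding genes, 44.9% had a candidate and 16.7% of those were bound. Of 13 further genes of the respiratory chain, the ATP synthase and their assembly, 10 (76.9%) had a candidate and 1 was bound (exact interval 0.253 to 44.5%). The bound gene was blw, which encodes the alpha subunit of the ATP synthase. Its peak ranked 531, 69 bp from the TSS with no other coding TSS in reach, and it ranked 1020 in replicate 2 and 448 in replicate 4. The cytochrome c genes Cyt-c-d and Cyt-c-p were unbound at ranks 1695 and 2842. The summit was 30 bp from the TSS of Cyt-c-p, but 309 bp from that of Cyt-c-d and 75 bp from that of CG31808. Of 11 citric acid cycle genes, 8 (72.7%) had a candidate and 3 were bound (exact interval 8.52 to 75.5%). These were Fum1 by the peak shared with ND-ASHI, Idh3g, an isocitrate dehydrogenase subunit, at rank 871, and kdn, citrate synthase, at rank 1346. Replicates differed here too, with Idh3g at 394 and 3756 and kdn at 11548 and 819 in replicates 2 and 4. Of 7 regulators of respiratory and mitochondrial transcription, 3 (42.9%) had a candidate and none was bound (upper bound 70.8%). Each of the 3 intervals of the bound share holds 16.7%, and no intervals were computed for the candidate shares. Of these regulators, ewg, the fly relative of mammalian NRF1, stood at rank 2441, mtTFB1 at 6410 and TFAM at 14700. The ewg summit was 99 bp from its TSS and that of TFAM 467 bp. The mtTFB1 summit was 458 bp from its TSS and only 32 bp from that of CG11658.

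Promoter sequence was described over a window of 250 bp upstream to 50 bp downstream of a gene's outermost TSS, on both strands. GGTCACAC, the Motif 1 core of fly housekeeping promoters, occurred in 16 of 88 members (18.2%), against 7.69% of all coding genes, and in 15 of the 63 subunit genes (23.8%) but 1 of the 24 L paralogues (4.17%). ATCGAT, the DRE core, occurred in 26 (29.5% against 23.3%), GAGAG in 20 (22.7% against 29.7%), the NRG element, searched as TTACGTAA, TTATATAA or TTACATAA, in 6 (6.82% against 5.18%), and the E-box CACGTG in 4 (4.55% against 4.2%). For GAGAG the subunit genes, at 10 of 63 (15.9%), and the L paralogues, at 10 of 24 (41.7%), lay on opposite sides of the share over all coding genes. The members' windows had a median GC content of 34.2%, against 38.0%, whose part in these counts was not tested. Among the bound members, GGTCACAC was in the promoter windows of ND-MWFE, COX5B and ATPsynC. That of COX7C held GAGAG and CACGTG, and that of ND-ASHI held none of the words. The shares over all bound coding genes were not computed.

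Within 100 bp of the summit of the strongest candidate, the NRG words were found at 5 of 39 members (12.8%, against 2.36% of 6270 coding genes): ND-42, ND-B18, ND-MNLL, SdhA and ATPsynB. The promoter windows of the same 39 members showed no such gap. There the words occurred in 2, ND-42 and ND-MNLL (5.13%, against 4.98% of coding genes with a candidate). The summit counts rest on few genes, and the SdhA summit lay 430 bp from its TSS. The members' summit windows had a median GC content of 39.3%, against 44.3%. ATCGAT was at 9 summits (23.1% against 17.3%), among them UQCR-14, ATPsynE, ATPsynF and SdhD, GAGAG at 7 (17.9% against 26.8%), GGTCACAC at 4 (10.3% against 6.70%), and CACGTG at 0 (against 3.67%). The summit windows of all 5 bound members held none of these words, and how often this holds over all bound coding genes was not computed. A match is a description of the letters only, and so is its absence from a window.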

How the data were processed

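ChIP-seq was deposited for 2 replicates of 1 group. The authors deposited 4 lists in dm6 coordinates, described in the text deposited with them: candidates of each replicate, candidates of both alignments pooled, and the IDR-thresholded regions. The aligner, the caller and its version, and the IDR cut-off were not named in the sources used. The signal column is deposited as the peak caller's value and was used for ranks within a list only. The deposited −log10 q-value was at its highest in 3537 pooled candidates so ranks do not use it. Positions were taken from the deposited start, end and summit offset in bp; coordinates are printed 1-based.

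TSSs came from Ensembl release 115 and sequence from RefSeq. Every candidate lay within the RefSeq chromosome lengths. Each gene took its strongest candidate within 500 bp of a TSS, and 1 region could serve several genes. Bound shares have Clopper-Pearson 95% intervals (scipy 1.17.1, python 3.11.15). The most frequent region width was 336 bp pooled, 400 bp in replicate 2 and 270 bp in replicate 4. Summits counted as matching between lists within 100 bp. The assignment was tested on simulated regions. L paralogues include COX6AL, COX6AL2, COX6CL and ATPsynepsilonL, whose base gene bears another name. Nc73EF and mtRNApol were matched by synonym, as Ogdh and PolrMT. Named genes are all bound members, up to 2 of the best-ranked unbound members per complex, members strong in 1 replicate only, those next to the threshold and bound genes of the related lists; other names were chosen after their values were seen. Members, lists, motifs and alternatives were chosen with earlier results of these data known. The alternatives were distances of 250 and 1000 bp, the nearest coding gene only, the 783 strongest peaks, each replicate left out, peaks strong in both replicates, all members as denominator and subunits only.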

Additional observations from a re-analysis of the deposited data

How the results depend on the processing

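Under 9 alternatives the share bound ranged from 5.13% to 22.2%, and the number of bound members from 2 to 10. These shares lie within the main interval of 4.30 to 27.4. That interval is wide and covers counting error only, and the alternatives reuse the same genes. Lying within it therefore does not show that the share is stable. The number of bound members depended most on the replicate. With one replicate left out it ranged from 3 to 10, and the median rank from 8067 to 8655. Without replicate 4 the bound genes were ATPsynC, ATPsynF and ND-ASHI, and without replicate 2 all 5 were kept and 5 others added. Over the same replicates left out, complex I had 1 to 3 bound genes, complex III 0 to 1, complex IV 0 to 4 and complex V 2. ATPsynC and ND-ASHI were the 2 that stayed bound with peaks strong in both replicates (5.13% against 8.15% of coding genes, complex I 1, complex IV 0) and with the nearest coding gene only (6.90% against 15.3%, again 1 and 0, median rank 6936). With a distance of 250 bp, 2 stayed bound, ATPsynC and ND-MWFE (6.90% against 16.9%, complex I 1, complex IV 0). The 783 strongest peaks left 3 (7.69% against 8.88%, complex I 1, complex IV 1). The median rank was 7598 with 1000 bp and 4535.5 for subunits only, and both kept the same 5 bound genes. The cause of these changes was not tested. No paired analysis was possible because there is only 1 group. Depth is unknown, so no value here includes read sampling, and genes near the cut can change sides by small differences in signal.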
